A study of Homo sapiens with 14 samples.

Results

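In 297 of 65774 regions of open chromatin, or 0.452%, the clones EM1, EM2 and EM3 of the breast cancer line SUM149PT were less accessible than the clones M1, M2 and E. They were chosen on measured values. The level L of a library was log2(CPM + 0.5), with CPM the count scaled to a library total of 1e6, averaged over the 2 libraries of a clone, with E represented by E replicate 2 alone. A region was kept where L in each EM clone was at least 1 below the lowest of M1, M2 and E, which is a gap of 1 or more. The reverse condition, each EM clone at least 1 above the highest of the others, was met by 436 regions. The unselected line (Parental) and E replicate 1 had no part in the choice. All values of EM, M1, M2 and E replicate 2 at these regions are therefore descriptions, and differences between the EM clones and those groups carry no test.

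ATAC-seq, which marks open DNA with adapters inserted by a transposase, was run on 2 libraries for each of EM1, EM2, EM3, M1, M2, E and Parental (14 libraries). SUM149PT is a cell line of a hormone receptor-negative inflammatory breast tumour, and the labels list no treatment. The groups differ only in being the unselected line or a named clone of it, so each clone name stands for 1 line. Whether both libraries of a group were separate cultures is not stated, and p-values measure only the spread between libraries. The smallest library, E replicate 1, held 8138944 counts and the largest, EM3 replicate 1, 16786823. The clone names were checked at gene starts. The CDH1 start, the gene of E-cadherin, had 31.9, 21.7 and 28.0 CPM in EM1, EM2 and EM3, 2.57 in M1, 0.456 in M2, 36.2 in E and 39.7 in Parental, and the VIM start (vimentin) had 32.4, 47.4 and 37.8 in the EM clones, 54.3 in M1, 60.1 in M2, 15.8 in E and 20.99 in Parental. The mesenchymal starts of ZEB1 and FN1 did not repeat the order seen at VIM. ZEB1 had 19.3, 21.8 and 18.7 CPM in EM1, EM2 and EM3, 26.5 in M1 and 19.1 in M2. It had 15.7 in E and 19.1 in Parental, so M2 was not above the EM clones. FN1 had 16.97, 33.2 and 18.66 CPM in EM1, EM2 and EM3, 40.3 in M1 and 44.2 in M2. It had 24.1 in E and 19.2 in Parental, so E was above EM1 and EM3. Of the markers of other cell types, PDGFRB (fibroblasts and pericytes) had 0.836, 1.71 and 1.34 CPM in EM1, EM2 and EM3. PDGFRB had 4.83 in M1, 19.4 in M2, 7.00 and 1.56 in E replicates 1 and 2, and 1.14 in Parental. CD3E (blood) had 49.3, 49.7 and 42.9 in the EM clones, 36.7 in M1, 16.6 in M2, 20.6 in E and 47.3 in Parental. COL1A1 (fibroblasts) had 12.6, 12.2 and 14.1 in the EM clones, 29.1 in M1, 15.0 in M2, 13.8 in E and 12.3 in Parental. CDH2, listed as mesenchymal, and COL1A2, PECAM1, CDH5 and PTPRC had no region within 1 kb of a start. The part of other cells in the results was not tested.

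Much of the accessible chromatin away from gene starts consists of enhancers, short stretches where transcription factors displace nucleosomes and act on genes nearby or at a distance. Many gene starts are accessible in most cell types, and the set of open enhancers changes more when cells switch between epithelial and mesenchymal states. In this transition, epithelial cells lose junctions and gain motility, and intermediate states keep features of both. In bulk libraries, fewer cells with a region open and a lower accessibility per cell cannot be told apart.

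The regions were mostly distal, and few lay at gene starts. Of the 279 on chromosomes with annotated start sites in the RefSeq table, 12 lay within 1 kb of a protein-coding start, or 4.30%, against 17.1% of all regions. The median distance to a start was 66.9 kb, against 37.4 kb for all regions. Inside a protein-coding gene lay 149 regions, or 50.2%, against 57.2% of all regions. Their median width was 420 bp and that of all regions 407 bp. The starts within 1 kb belonged to C3orf18, CCDC33, HPCAL4, XYLT1, NXPE2, IP6K3, COL5A1, INSR, LOC124903164, GLIS1, LGALS3BP and TNRC6C. The other 18 regions lay on chromosome 8, for which start sites were not used here.

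The start sites that overlapped a region are the place where the sequence behind the signal can be shown. Of the promoter windows of 300 bases (250 before to 50 after a start, RefSeq, GRCh38.p14), 9 windows of 8 genes overlapped one of the regions. A set of 4 is given below, 5′ to 3′ along the gene, with matches to the motifs searched in capitals. They are the start with the highest Parental level over the EM clones (C3orf18), a start at which 2 EM clones were called lower than Parental (HPCAL4), the start that separated EM2 from the other EM clones (COL5A1) and the start of the insulin receptor gene (INSR).

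C3orf18, chr3:50567698-50567997, minus strand: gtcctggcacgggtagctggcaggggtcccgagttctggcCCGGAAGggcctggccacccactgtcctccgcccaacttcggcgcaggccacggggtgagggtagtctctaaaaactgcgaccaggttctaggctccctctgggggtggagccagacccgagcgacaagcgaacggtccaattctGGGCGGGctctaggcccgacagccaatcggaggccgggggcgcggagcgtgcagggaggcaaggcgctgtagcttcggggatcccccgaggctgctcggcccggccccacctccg

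HPCAL4, chr1:39691384-39691683, minus strand: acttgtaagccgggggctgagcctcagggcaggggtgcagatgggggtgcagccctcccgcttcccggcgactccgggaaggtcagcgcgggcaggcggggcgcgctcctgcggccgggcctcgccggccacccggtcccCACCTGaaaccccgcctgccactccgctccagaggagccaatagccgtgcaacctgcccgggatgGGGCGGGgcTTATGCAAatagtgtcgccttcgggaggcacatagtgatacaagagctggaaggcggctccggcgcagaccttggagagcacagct

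COL5A1, chr9:134641553-134641852, plus strand: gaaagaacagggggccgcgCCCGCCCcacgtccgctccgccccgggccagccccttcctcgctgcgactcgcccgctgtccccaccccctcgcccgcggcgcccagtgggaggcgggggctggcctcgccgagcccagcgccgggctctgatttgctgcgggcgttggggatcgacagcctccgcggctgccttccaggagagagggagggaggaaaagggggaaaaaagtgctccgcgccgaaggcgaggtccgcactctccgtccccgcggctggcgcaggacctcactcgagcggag

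INSR, chr19:7294365-7294664, minus strand: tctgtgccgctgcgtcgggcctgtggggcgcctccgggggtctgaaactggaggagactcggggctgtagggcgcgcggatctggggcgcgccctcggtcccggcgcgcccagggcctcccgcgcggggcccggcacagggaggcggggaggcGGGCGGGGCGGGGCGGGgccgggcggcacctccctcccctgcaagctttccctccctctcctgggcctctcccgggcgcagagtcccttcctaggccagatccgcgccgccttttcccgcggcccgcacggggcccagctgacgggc

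Motifs were searched on both strands in the 9 windows and counted beside the 11192 promoter windows that overlap any accessible region. Of the 9 windows, 2 belong to COL5A1 and are nearly the same sequence, so its SP match is counted 2 times. The SP motif GGGCGGG was in 6 of 9 windows (66.7%), against 54.9% of accessible promoters, the ETS motif CCGGAAG in 2 (22.2%), against 20.6%, and the E-box CACCTG in 3 (33.3%), against 18.1%. AP-1 TGANTCA was in 1 window (11.1%), against 5.08%, TEAD CATTCC in 1, against 10.3%, FOX TGTTTAC in 1, against 2.29%, IRF GAAANNGAA in 1, against 6.17%, and CEBP TTGCNNAA in 2, against 6.84%. CRE TGACGTCA, RUNX TGTGGTT, GRHL AACCNGTT, NRF1 GCGCATGCG and CTCF CNAGGGGGC were in none of the 9, and in 3.31%, 2.98%, 1.43%, 3.73% and 5.33% of accessible promoters. The windows had a median GC content of 69.3%, against 65.7%, and a median of 25 CpG pairs, against 27. The sequence of distal regions was not used here.

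Across the 297 regions, the median of the clone means was 0.602 CPM in EM1, 1.09 in EM2, 0.891 in EM3, 9.68 in M1, 16.6 in M2, 7.00 in E and 1.05 in Parental, against medians of 8.73 to 10.7 CPM over all regions. The EM mean was at the median 8.12% of the mean of M1, M2 and E replicate 2. The median gap was 1.30 and the largest 3.71, and 40 regions had a gap of 2 or more. In 293 regions, all libraries of M1, M2 and E replicate 2 lay above all 6 EM libraries, as in 3.88% of all regions, which follows from the choice. E replicate 2 was the lowest of the 3 accessible groups in 203 regions, M1 in 60 and M2 in 34. M2 was the highest in 209 regions, M1 in 76 and E in 12. Among the EM clones, EM2 was the highest in 171 regions, EM3 in 86 and EM1 in 40, and the 3 clones lay within 1 of each other in 247 regions. Depth limits the lower end: E replicate 2 held as few as 6 counts in a region and a median of 48, with under 30 counts in 89 regions.

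**Figure D1:**
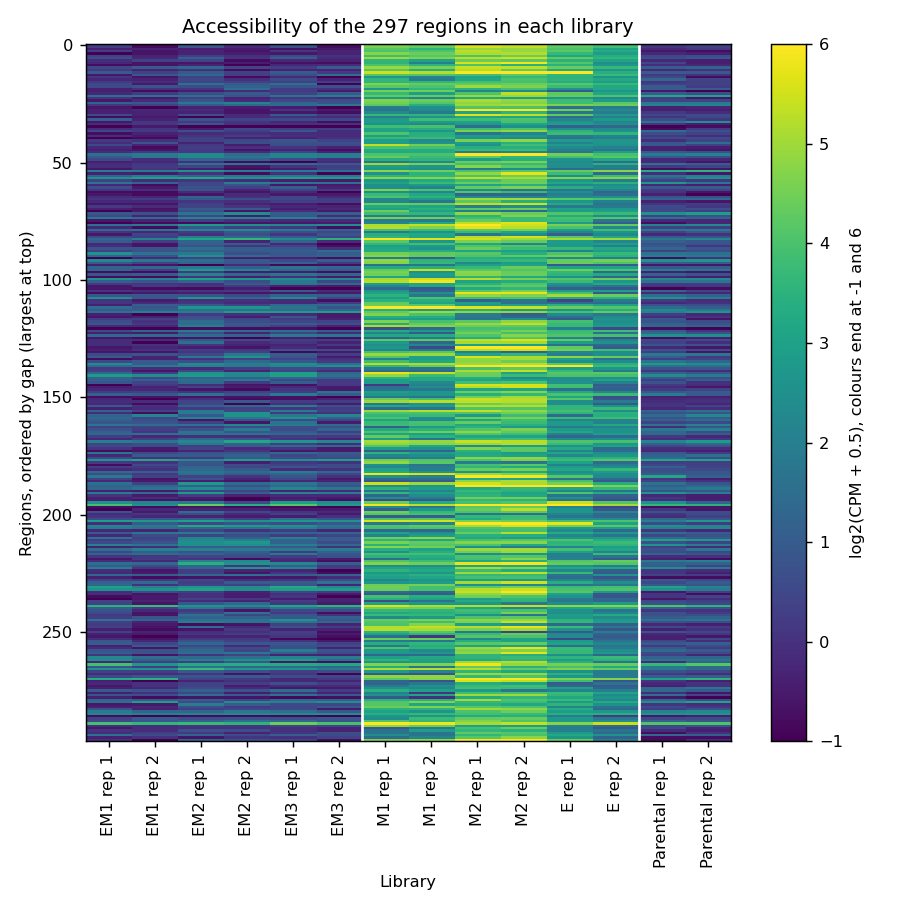
Level of the 297 regions (rows, largest gap at the top) in the 14 libraries (columns), as log2(CPM + 0.5). The 6 EM libraries on the left and the 2 Parental libraries on the right are dark at most regions, and the M1, M2 and E libraries between them are light.

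The unselected line was not open at most of these regions. Parental lay within 1 of the highest EM clone in 271 regions, at least 1 below it in 21 and at least 1 above it in 5, or 1.68%, against 0.313% of all regions. The median difference from the highest EM clone was -0.17, and the median difference from the lowest of M1, M2 and E replicate 2 was -1.55. Parental was below the lowest of these groups in 296 regions and at least 1 below in 252. In 284 regions it was closer to the highest EM clone. That M1, M2 and E were open is the condition itself, and a description of the regions as open outside the EM clones goes against the data for Parental.

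**Figure D2:**
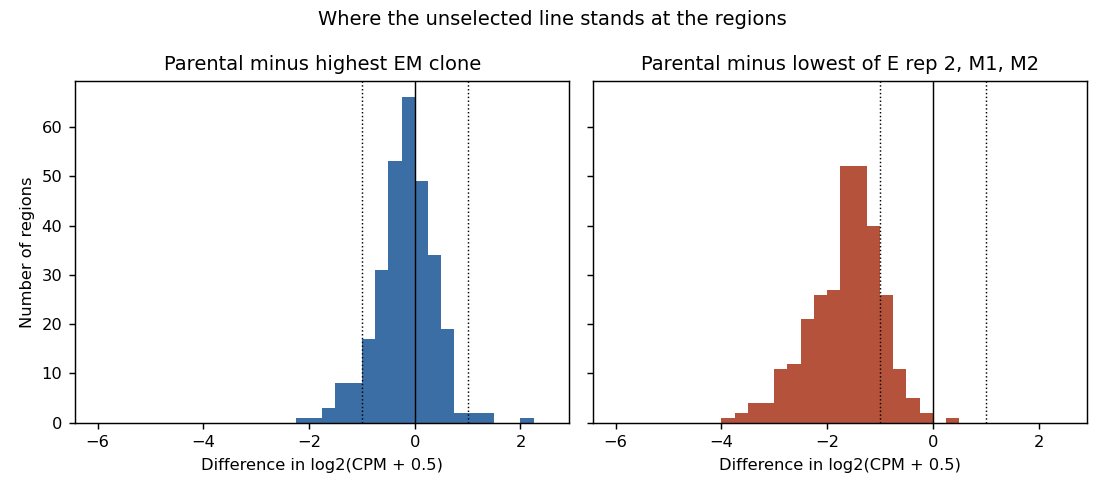
Number of regions by the difference of Parental from the highest EM clone (left) and from the lowest of E replicate 2, M1 and M2 (right), in log2(CPM + 0.5); dotted lines mark -1 and 1. The left distribution is centred near 0 (median -0.17) and the right one lies below 0 in 296 of 297 regions.

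Each clone was then compared with Parental by edgeR quasi-likelihood tests fitted on 65771 regions and adjusted by the Benjamini-Hochberg method. All 6 comparisons share the Parental libraries. The clone libraries were used to choose the regions, so the counts are descriptions. Of the 297 regions, 8 were called lower and 0 higher in EM1 than in Parental, where 0.628% of all regions were called (0.287% lower, 0.341% higher). In EM2, 8 were called lower and 10 higher, where 9.19% of all regions were called (6.17% lower, 3.02% higher). In EM3, 9 were called lower and 0 higher, where 3.11% of all regions were called (1.26% lower, 1.85% higher). In E, 250 regions were called higher than in Parental, where 11.6% of all regions were called (5.27% higher, 6.31% lower). In M1, 269 were called higher, where 42.4% of all regions were called (19.0% higher, 23.4% lower), and in M2 294, where 67.0% were called (32.1% higher, 34.9% lower). None was called lower in E, M1 or M2. Set against Parental, the median log2 difference was -0.53 in EM1, 0.06 in EM2, -0.24 in EM3, 3.17 in M1, 4.12 in M2 and 2.59 in E, and over all regions it was between -0.01 and 0.03. In 236 regions E, M1 and M2 were all called higher than Parental, and in 217 of these no EM clone was called different from Parental. The joint shares over all regions were not computed, and high E, M1 and M2 with low EM is what the choice asked for. No EM clone was called in 273 of the 297 regions. Calls were also few over all regions, 0.628% in EM1, 9.19% in EM2 and 3.11% in EM3. The E count fell to 154 without E replicate 1, to 126 without Parental replicate 1 and to 83 without Parental replicate 2. The EM1 count was 0 without any 1 of the EM1 or Parental libraries. The EM2 count of 18 fell to 7 without EM2 replicate 1, 4 without Parental replicate 1 and 7 without Parental replicate 2. The EM3 count of 9 fell to 2 without either EM3 library, 3 without Parental replicate 1 and 2 without Parental replicate 2.

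E replicate 1 against Parental is the comparison in which no library had been used for the choice. The clone had been used, since regions were kept for high values in E replicate 2. High values in a second library of clone E therefore follow from the choice, and the counts are descriptions. With E replicate 2 left out of the fit, 244 of the 297 regions were higher in E replicate 1 and 0 lower (edgeR adjusted p under 0.05), against 8.8% of all regions higher. The median log2 difference was 2.88, over all regions 0.06, and 296 regions had a difference above 0. With 1 E library left, its spread was taken from the other groups. E replicate 1 carried signal like that of M2, which the choice did use, and the part of that signal in these counts was not tested. E replicate 1 was also at least 1 above the highest EM clone in 271 regions (91.2%), as in 6.36% of all regions.

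Both E libraries held signal found otherwise in M2. At 12 regions with at least 5 CPM in M2 and no count in the 10 libraries of EM1, EM2, EM3, M1 and Parental, E replicate 1 had 23.3% of the M2 level (95% exact Poisson interval 21.3 to 25.3, from 528 counts). E replicate 2 had 1.95% there (1.45 to 2.58, from 49 counts). The intervals cover counting error only. At the 297 regions, such a share of M2 would make up a median of 54.2% of the level in E replicate 1, more than 50% of it in 163 regions and all of it in 31. In E replicate 2 it would make up a median of 5.95%, and more than 50% in 8 regions. With this share taken from E replicate 2, 232 regions still met the rule, all of them among the 297. The same could not be measured for M1, since no region met the condition with M1 and M2 exchanged.

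**Figure D3:**
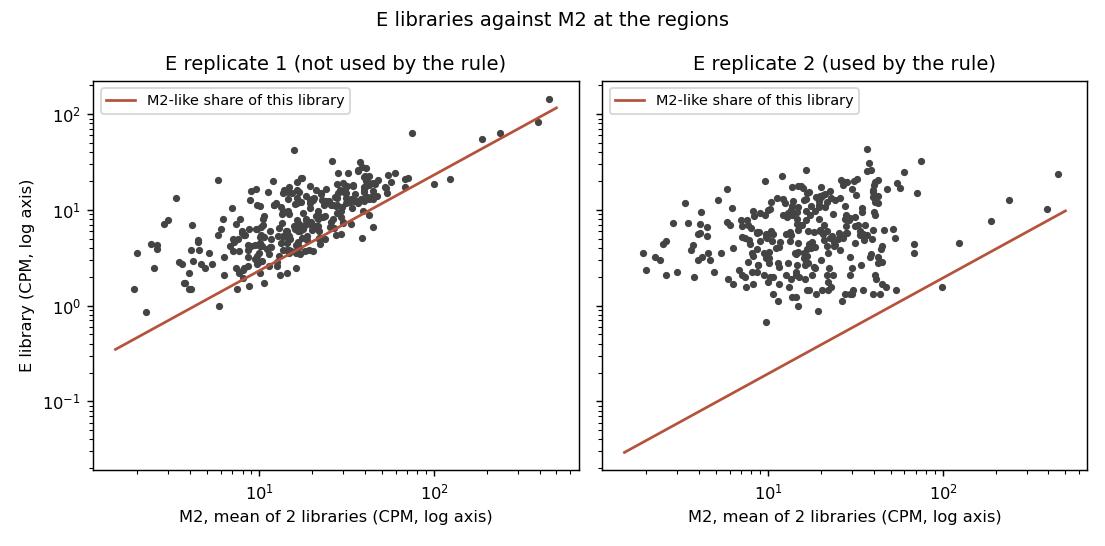
Level in E replicate 1 (left) and E replicate 2 (right) against the mean of M2 at the 297 regions, both in CPM on log axes; the line is the share of M2 measured at the 12 M2-specific regions, 23.3% and 1.95%. Points of E replicate 1 gather along and above the line, and most points of E replicate 2 lie well above it.

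The region at the start of C3orf18 (chromosome 3, 50567394 to 50567921, hg38), whose promoter is printed above, was one of 3 with all EM clones called lower than Parental. It had 2.51 and 2.59 CPM in EM1, 2.47 and 1.27 in EM2, 2.56 and 3.42 in EM3, 19.1 and 19.99 in M1, 29.9 and 29.9 in M2, 19.3 and 16.3 in E, and 8.92 and 7.83 in Parental. The EM libraries did not overlap any other group, and Parental stood between them and M1, M2 and E. The log2 difference from Parental was -1.75 ± 0.29 (SE) in EM1, -2.18 ± 0.30 in EM2 and -1.55 ± 0.28 in EM3. The M2-like share would make up 3.58% of its level in E replicate 2 and 36.1% in E replicate 1. HEMK1, which encodes a glutamine methyltransferase of translation release factors, starts close by on the other strand. The region at the HEMK1 start (50569321 to 50569778) did not share the pattern, with 15.2 and 13.5 CPM in EM1, 18.8 and 15.7 in EM2, 15.4 and 15.5 in EM3, 11.2 and 11.6 in M1, 17.1 and 18.7 in M2, 20.9 and 18.01 in E, and 16.8 and 15.1 in Parental. The next regions on either side, 6.2 kb upstream and 6.4 kb downstream of the HEMK1 start, were lowest in M2, at most 0.861 CPM. HEMK1 therefore names the neighbourhood of the lowered region and not the region itself.

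**Figure D4:**
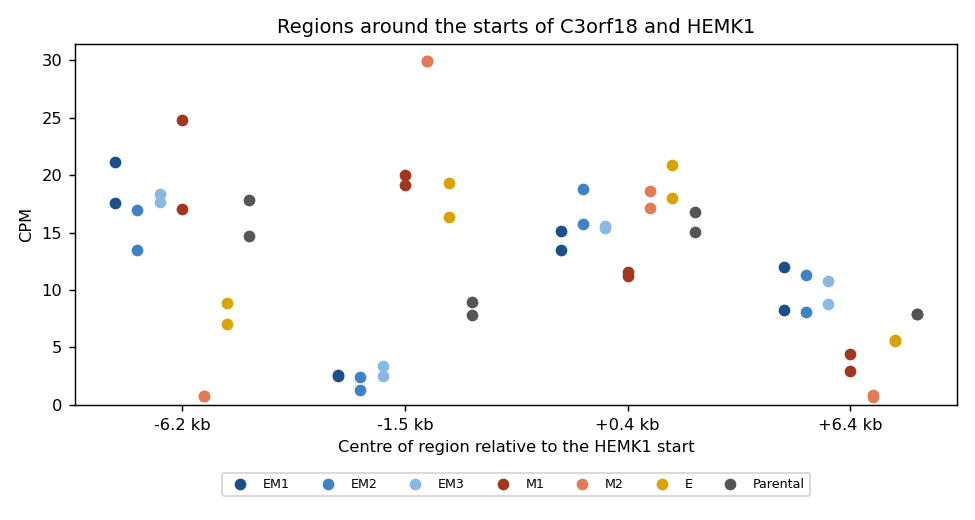
Level in CPM of the 4 regions around the starts of C3orf18 and HEMK1, each point 1 library, by the distance of the region's centre from the HEMK1 start. At -1.5 kb, the start of C3orf18, the 6 EM libraries lie at or below 3.42 CPM and all others at or above 7.83, and at +0.4 kb the groups overlap.

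Of the 297 regions, 14 had any EM clone called lower than Parental, and 3 had all of them: C3orf18, a region inside NIN and a region far upstream of PAPPA. The joint shares over all regions were not computed. For any EM clone the share is at least 6.17%, that of EM2 alone, so the 14 show no excess. For all EM clones it is at most 0.287%, that of EM1. The NIN region (chromosome 14, 50763403 to 50763950, inside the gene of ninein, a centrosome protein) had 0.179 and 0.576 CPM in EM1, 0.618 and 0.556 in EM2, 0.357 and 0.104 in EM3, 6.30 and 6.85 in M1, 7.86 and 15.2 in M2, 6.02 and 4.11 in E, and 2.79 and 5.30 in Parental. Here Parental overlapped E and not the EM clones. The region on chromosome 9 (115923859 to 115924248, outside any gene and 230 kb from the start of PAPPA, a protease of the insulin-like growth factor system) had 3.32 and 3.24 CPM in EM1, 5.49 and 3.41 in EM2, 3.16 and 2.38 in EM3, 26.9 and 21.5 in M1, 15.5 and 17.4 in M2, 19.5 and 26.1 in E, and 9.55 and 11.2 in Parental. At HPCAL4, the gene of a neuronal calcium-binding protein (chromosome 1, 39691326 to 39691772), there were 1.34 and 1.15 CPM in EM1, 2.78 and 4.68 in EM2, 1.61 and 1.66 in EM3, 14.2 and 11.6 in M1, 27.9 and 20.2 in M2, 16.7 and 12.7 in E, and 5.31 and 7.16 in Parental. EM1 and EM3 were called lower than Parental there and EM2 was not. The same calls were made for a region at an end of EPHX2, the gene of a soluble epoxide hydrolase (chromosome 8, 27490950 to 27491448), with 0.717 and 0.936 CPM in EM1, 4.56 and 3.57 in EM2, 1.73 and 1.55 in EM3, 11.3 and 8.08 in M1, 15.2 and 17.6 in M2, 16.0 and 9.78 in E, and 7.57 and 6.40 in Parental. A region inside ZNF704 on chromosome 8 (80687251 to 80687516) had 0.269 and 0.360 CPM in EM1, 1.00 and 0.397 in EM2, 0.179 and 0.207 in EM3, 5.44 and 4.24 in M1, 14.1 and 12.8 in M2, 7.25 and 1.89 in E, and 1.98 and 2.86 in Parental. There EM3 alone was called lower than Parental, and Parental overlapped E. When any 1 of the EM1, EM3 or Parental libraries was left out, 0 regions had all EM clones called lower than Parental, and 2 and 1 had without EM2 replicates 1 and 2. The count of 14 fell to 4 without Parental replicate 1 and 6 without Parental replicate 2, and was 24 with the replicate number as a block (4 with all EM clones) and 20 by DESeq2 (3 with all EM clones).

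The 10 regions with the largest gaps had under 2 CPM in every EM and Parental library. A region inside PLXNA2, the gene of a semaphorin receptor (chromosome 1, 208203388 to 208203662), had 0.538 and 0.144 CPM in EM1, 0.155 and 0.159 in EM2, 0.179 and 0.207 in EM3, 10.6 and 9.79 in M1, 20.2 and 18.7 in M2, 12.7 and 11.2 in E, and 0.631 and 0.589 in Parental, a gap of 3.71. A region inside TMTC1, which encodes a mannosyltransferase of the endoplasmic reticulum (chromosome 12, 29725952 to 29726315), had 0.119 to 0.288 CPM in the 6 EM libraries, 17.6 and 11.2 in M1, 29.1 and 28.5 in M2, 16.0 and 7.89 in E, and 0.360 and 0.589 in Parental. The EM and Parental libraries lay below 1 CPM in both regions and did not overlap the other groups. Near LMCD1, which encodes a LIM-domain transcriptional cofactor, there were 2 of the 10 regions. The one nearer its start (chromosome 3, 8490030 to 8490604) had 0.807 and 0.288 CPM in EM1, 0.696 and 0.476 in EM2, 0.953 and 0.518 in EM3, 13.9 and 17.5 in M1, 16.0 and 20.8 in M2, 8.11 and 9.78 in E, and 0.901 and 1.09 in Parental. The one farther away (8483293 to 8483697) had 1.08 and 0.360 CPM in EM1, 1.62 and 0.556 in EM2, 1.55 and 0.414 in EM3, 31.4 and 24.8 in M1, 39.7 and 44.5 in M2, 19.0 and 11.7 in E, and 1.08 and 1.35 in Parental. Parental overlapped the EM libraries in both regions, and neither overlapped M1, M2 or E.

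A region inside FRMD4A, a scaffold of epithelial polarity (chromosome 10, 14056915 to 14057433), had 0 and 0.144 CPM in EM1, 0.309 and 0.238 in EM2, 0.179 and 0.311 in EM3, 25.8 and 20.7 in M1, 34.7 and 36.3 in M2, 12.3 and 6.89 in E, and 0.360 and 0.253 in Parental. A region inside AKAP6, the gene of an anchoring protein of protein kinase A (chromosome 14, 32509616 to 32510255), had 0.359 and 0.144 CPM in EM1, 0.155 and 0.238 in EM2, 0.119 and 0.104 in EM3, 11.3 and 3.70 in M1, 47.5 and 58.5 in M2, 16.96 and 5.11 in E, and 0.901 and 0.253 in Parental. The libraries of M1 and of E differed from each other there, and none overlapped the EM libraries. A region 37.8 kb from KCNE4, a potassium channel subunit (chromosome 2, 223093391 to 223093857), had 0.0897 and 0.144 CPM in EM1, 0.309 and 0 in EM2, 0.357 and 0.414 in EM3, 15.6 and 11.2 in M1, 16.1 and 10.4 in M2, 10.7 and 5.89 in E, and 0.450 and 0.337 in Parental. A region on chromosome 4 (120518014 to 120518327), 166 kb from the nearest gene, had 0.448 and 0.792 CPM in EM1, 0.850 and 0.0794 in EM2, 0.357 and 0.311 in EM3, 11.4 and 7.74 in M1, 20.3 and 18.4 in M2, 10.6 and 8.003 in E, and 0.360 and 0.253 in Parental. Parental overlapped the EM libraries in both. The remaining 2 of the 10 lay inside XYLT1.

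Several regions stood close together. With neighbours at most 500 kb apart, 102 of the 297 regions fell into 35 groups and 195 stood alone. The largest group was at XYLT1, which encodes the xylosyltransferase that starts glycosaminoglycan chains on proteoglycans (chromosome 16, 17173200 to 17472014). There 7 of the 10 accessible regions in 299 kb were members, 6 inside the gene and 1 that lay 291 bp from its start. That start region (17471251 to 17472014) had 2.42 and 3.17 CPM in EM1, 6.57 and 5.08 in EM2, 3.93 and 4.76 in EM3, 34.5 and 41.6 in M1, 64.2 and 44.8 in M2, 23.3 and 19.1 in E, and 3.69 and 4.46 in Parental. A region inside XYLT1 (17405275 to 17405947) had 0.717 and 0.0720 CPM in EM1, 1.31 and 0.397 in EM2, 1.13 and 0.104 in EM3, 22.9 and 19.1 in M1, 45.2 and 39.4 in M2, 18.2 and 13.9 in E, and 0.540 and 0.758 in Parental. Its neighbour (17406360 to 17406733) had 0.717 and 0.144 CPM in EM1, 0.309 and 0.159 in EM2, 0.596 and 0.311 in EM3, 16.2 and 15.7 in M1, 38.3 and 30.02 in M2, 18.1 and 9.45 in E, and 0.180 and 0.0842 in Parental. The median of the 7 regions was 0.431 CPM in EM1, 1.69 in EM2, 0.453 in EM3, 15.9 in M1, 19.5 in M2, 15.1 in E and 1.05 in Parental. Groups of 5 were found at FRMD4A (5 of 10 regions), at TRABD2B, a protease of Wnt ligands (5 of 13), at DPF3 and RGS6, a chromatin remodelling subunit and a regulator of G protein signalling (5 of 12), and around DUSP1 and STC2 on chromosome 5 (5 of 43). At FRMD4A the median of the 5 regions was 0.475 CPM in EM1, 1.36 in EM2, 0.958 in EM3, 35.9 in M1, 34.4 in M2, 7.90 in E and 0.832 in Parental. ABTB3 had 3 of 4 regions, OTUD7A 3 of 5 and LMCD1 3 of 5. The totals of all these groups count only regions from the first to the last member, not those of the whole gene or locus. Both ends are members by construction, which raises the shares.

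At other regions within 10 kb of the members, the mean of M1, M2 and E replicate 2 was often above the mean of the EM clones. Within 1000 kb these means mostly lay close together. The difference, taken as the mean L of M1, M2 and E replicate 2 minus the mean L of the EM clones, had a median of 2.71 at the 297 regions and -0.08 over all regions. Of the members, 291 had at least 10 other regions within 1000 kb. The median of those neighbours was 0.04 at the middle member, with quartiles of -0.17 and 0.24. In 17 windows it was 1 or more. Within 10 kb, 139 members had another region that was no member, with a median of 0.76, and in 59 of these it was 1 or more. The share of all regions at 1 or more was not computed. A high level in M2 alone can also raise this difference, so it does not show that each group was above the EM clones. Of the 17 windows, 7 were in the gene desert around MYC on chromosome 8, where the rule chose 2 groups. In the group from 127852725 to 128103982, 4 regions had a median of 1.57 CPM in EM1, 1.33 in EM2, 1.49 in EM3, 10.5 in M1, 316 in M2, 42.3 in E and 1.67 in Parental. M2 was far above M1 there, and the median of E replicate 2 alone was 11.4 CPM. Accessibility counts alone cannot tell more DNA copies from more open chromatin.

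The 4 regions where Parental lay farthest below the highest EM clone had EM2 as that clone. A region on chromosome 18 (10304739 to 10305265, 149 kb from the nearest gene) had 0.986 and 1.22 CPM in EM1, 5.26 and 6.19 in EM2, 1.85 and 1.04 in EM3, 23.8 and 19.4 in M1, 25.6 and 26.0 in M2, 11.3 and 13.2 in E, and 1.17 and 0.842 in Parental. A region inside ARHGAP26 (chromosome 5, 143002438 to 143003237), had 2.42 and 2.16 CPM in EM1, 10.1 and 5.56 in EM2, 4.29 and 1.66 in EM3, 25.5 and 21.4 in M1, 54.6 and 58.9 in M2, 19.4 and 17.1 in E, and 1.71 and 1.85 in Parental. A region inside SLIT3, the gene of a guidance ligand (chromosome 5, 168931591 to 168932051), had 5.56 and 5.55 CPM in EM1, 13.1 and 6.35 in EM2, 5.60 and 3.21 in EM3, 35.4 and 36.8 in M1, 36.3 and 19.6 in M2, 24.1 and 19.5 in E, and 3.24 and 2.19 in Parental. A region inside TRABD2B (chromosome 1, 47934191 to 47934820) had 1.43 and 0.288 CPM in EM1, 3.01 and 5.40 in EM2, 1.31 and 0.207 in EM3, 16.8 and 7.19 in M1, 47.7 and 33.8 in M2, 27.3 and 19.8 in E, and 1.62 and 0.673 in Parental. In all of these the Parental mean was below the mean of EM2, which follows from how they were picked. It was also below the means of EM1 and EM3, except at TRABD2B. There Parental had a mean of 1.15 CPM, against 0.861 in EM1 and 0.759 in EM3.

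At the other gene starts the EM clones were low and Parental was low or intermediate. At CCDC33 (chromosome 15, 74317789 to 74318117) there were 0.628 and 0.432 CPM in EM1, 0.850 and 0.794 in EM2, 0.774 and 0.725 in EM3, 11.5 and 11.7 in M1, 14.1 and 15.1 in M2, 9.71 and 7.11 in E, and 0.540 and 0.758 in Parental. At INSR (chromosome 19, 7293909 to 7294644) there were 1.17 and 0.720 CPM in EM1, 1.24 and 3.18 in EM2, 1.01 and 1.97 in EM3, 9.07 and 11.0 in M1, 16.8 and 24.2 in M2, 6.76 and 5.56 in E, and 2.97 and 3.62 in Parental. IP6K3, the gene of an inositol hexakisphosphate kinase, had 0.541 to 2.69 CPM in the EM libraries at a region 303 bp from its start, 7.04 and 5.89 in M1, 21.3 and 26.0 in M2, 8.60 and 4.22 in E, and 1.44 and 1.52 in Parental. The libraries of a clone disagreed at NXPE2, with 5.02 and 1.37 CPM in EM1, 5.95 and 2.06 in EM2, 4.41 and 0.932 in EM3, 7.36 and 15.8 in M1, 13.8 and 15.6 in M2, 8.97 and 10.8 in E, and 5.67 and 3.28 in Parental.

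The condition holds all EM clones low and both M clones high, so differences within these clones at the 297 regions come from selected values and are descriptions. In EM2 against EM1, 27 of 297 regions passed an adjusted p of 0.05 (edgeR), 25 higher and 2 lower, where 12.2% of all regions passed, 4.26% higher and 7.95% lower. The share of the 297 that passed was below that of all regions in this comparison and in EM3 against EM2. The median log2 difference was 0.59, and 223 regions were above 0. In EM3 against EM2, 18 passed, 1 higher and 17 lower, where 11.8% of all regions passed, 7.6% higher and 4.17% lower, with a median of -0.23. In EM3 against EM1, 1 region passed and was lower, where 0.0471% of all regions passed (0.0243% higher, 0.0228% lower), and 24 had an unadjusted p under 0.05, with a median of 0.32. The count for EM2 against EM1 fell to 8 without EM1 replicate 2, 14 without EM2 replicate 1 and 16 without EM1 replicate 1. For EM3 against EM2 it fell to 5 without EM2 replicate 1 or EM3 replicate 2 and to 11 without EM3 replicate 1.

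At the COL5A1 start, the gene of a collagen V chain (chromosome 9, 134641520 to 134641852, promoter printed above), there were 0.448 and 0.0720 CPM in EM1, 3.17 and 5.40 in EM2, 0.655 and 0.518 in EM3, 15.9 and 15.2 in M1, 16.8 and 22.3 in M2, 11.7 and 10.8 in E, and 1.17 and 1.26 in Parental. EM2 lay above EM1, EM3 and Parental in both libraries and below M1, M2 and E. The edgeR log2 difference was 4.09 ± 0.52 (SE) in EM2 against EM1 and -2.84 ± 0.45 in EM3 against EM2. A region inside XYLT1 (chromosome 16, 17364308 to 17364620) had 0.448 and 0.360 CPM in EM1, 3.63 and 4.52 in EM2, 0.357 and 0.104 in EM3, 16.6 and 13.8 in M1, 8.83 and 10.3 in M2, 16.6 and 20.01 in E, and 3.15 and 3.79 in Parental. Here EM2 overlapped Parental, and EM1 and EM3 were lower. EM1 stood apart inside ARHGAP26 (chromosome 5, 143177237 to 143177827), with 9.59 and 10.7 CPM in EM1, 0.850 and 0.635 in EM2, 0.357 and 0.621 in EM3, 18.03 and 25.5 in M1, 59.3 and 60.2 in M2, 24.6 and 25.01 in E, and 7.66 and 11.2 in Parental. At that region EM1 overlapped Parental and EM2 and EM3 were lower.

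M2 was above M1 in 223 of the 297 regions by log2 difference. In M2 against M1, 185 regions passed, 148 higher and 37 lower (edgeR, adjusted p under 0.05), where 56.3% of all regions passed, 27.2% higher and 29.1% lower. The share that passed in either direction was near that of all regions. The median log2 difference was 0.92, from -2.96 to 6.58, and over all regions 0.01. A region near TMEM217 (chromosome 6, 37244740 to 37245173) had 35.9 and 43.6 CPM in M2, against 4.05 and 3.22 in M1, a log2 difference of 3.61 ± 0.30 (SE). Its levels were 0.269 to 1.19 CPM in the EM libraries, 21.9 and 13.8 in E, and 1.17 and 1.01 in Parental. A region near SLF2, the gene of a DNA repair factor (chromosome 10, 100890642 to 100890994), had 31.2 and 31.9 CPM in M2, against 4.05 and 6.43 in M1, with 0.538 to 1.39 in the EM libraries, 17.9 and 14.4 in E, and 1.80 and 2.19 in Parental. The region on chromosome 8 from 127140056 to 127140886 had 108 and 138 CPM in M2, against 2.77 and 4.38 in M1, and 21.3 and 4.56 in E.

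**Figure D5:**
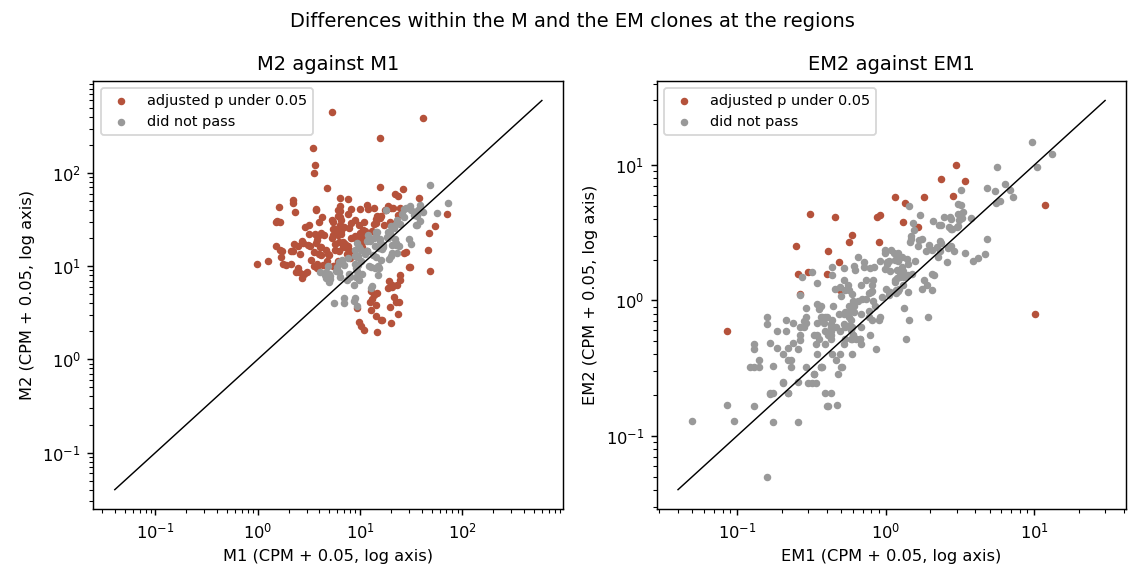
Mean level of the 297 regions in M2 against M1 (left) and in EM2 against EM1 (right), in CPM + 0.05 on log axes; coloured points passed an adjusted p of 0.05 in edgeR and the line marks equal levels. In M2 against M1, 148 regions passed above the line and 37 below it, and in EM2 against EM1, 25 above and 2 below.

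The condition has a sharp edge. The 3 regions just inside it had gaps of 1.002, 1.0003 and 1.0002 and lay near KCNIP1, PPP1R3C and PDPN, and the 3 just outside had gaps between 0.9988 and 0.9995. The PDPN region (podoplanin, chromosome 1, 13593513 to 13594197) had mean levels of 0.269, 1.56 and 0.499 CPM in EM1, EM2 and EM3, 26.0 in M1, 67.6 in M2, 3.56 in E replicate 2 and 0.256 in Parental. The region just outside near SLC26A9 (chromosome 1, 205907335 to 205907526) had 0.817, 0.667 and 0.646 CPM in the EM clones, 2.74 in M1, 8.12 in M2, 2.11 in E replicate 2 and 0.790 in Parental.

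The gene lists were small beside the share of all regions that met the condition, 0.452%. At so low a share, lists of this size can hold 0 or 1 such regions without differing from all regions. The counts are therefore no result about these genes. Of 138 regions assigned to 24 genes of epithelial identity, 0 met the condition, and of 122 assigned to 21 mesenchymal genes, 0 did. Of 82 regions assigned to 14 genes of AP-1, RUNX and TEAD factors, 1 did (1.22%), against 0.452% of all regions. That region lay 19.4 kb from JUN, an AP-1 subunit (chromosome 1, 58764330 to 58764667). It had 0.0794 to 0.648 CPM in the EM libraries, 2.35 and 8.28 in M1, 14.4 and 26.0 in M2, 3.69 and 1.44 in E, and 0.270 and 0.0842 in Parental. The M2-like share would account for 27.3% of its level in E replicate 2.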

How the data were processed

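Per the submitters' processing notes, the tools were featureCounts, deepTools, Picard, MACS2 2.1.1, Bowtie2 2.2.6, cutadapt 1.9.1 and bcl2fastq 2.20.0.422, and the build was hg38. The authors deposited whole-number counts per consensus region, not normalized. From these, CPM was computed on each library's total. Tests used edgeR 4.0.16 in R 4.3.3 (TMM scaling, minimum count 10, quasi-likelihood, 7 group means, Benjamini-Hochberg) on 65771 regions, and DESeq2 1.42.0 was an alternative. The fit was tested on simulated data. Regions took the name of the nearest protein-coding gene within 50 kb, or the gene they lie in. Given in full were the 10 largest gaps, the 4 highest and 4 lowest Parental levels relative to the EM clones, up to 8 starts within 1 kb by gap, the smallest p-values among the EM and M clones, and the regions nearest the threshold; other regions were named after their values were seen. The members and lists were chosen with earlier results of these data known. Peak lists were not used here.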

Additional observations from a re-analysis of the deposited data

Results flagged for a closer look

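Log2 differences between clones of one kind stood out at these regions (edgeR, with SE). The clones were used to choose the regions, so these are descriptions with no p given. Inside ARHGAP26 (chromosome 5, 143177237 to 143177827) the difference was -3.73 ± 0.31 in EM2 against EM1 and -4.44 ± 0.34 in EM3 against EM1. Inside XYLT1 (chromosome 16, 17364308 to 17364620) it was 3.33 ± 0.40 in EM2 against EM1 and -3.94 ± 0.43 in EM3 against EM2. At the COL5A1 start it was 4.09 ± 0.52 in EM2 against EM1 and -2.84 ± 0.45 in EM3 against EM2. On chromosome 18 (10304739 to 10305265) it was -1.95 ± 0.30 in EM3 against EM2. In M2 against M1 it was 3.61 ± 0.30 near TMEM217, 2.72 ± 0.27 near SLF2 and 5.23 ± 0.53 on chromosome 8 (127140056 to 127140886). In each case both libraries of the clones lay on the same side.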

How the results depend on the processing

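The choice of E library set the number of regions: the mean of both E libraries gave 630 (287 shared), and E replicate 1 in place of E replicate 2, an alternative chosen after seeing the data, gave 1026 (271 shared). Taking the M2-like share from E replicate 2, also chosen after seeing the data, gave 232. A gap of 1.5 gave 102, the lowest open library against the highest EM library 137, a pseudocount of 1 gave 200 and TMM library sizes 307. Leaving out 1 library gave 264 to 323. The 10 clone differences listed above stayed past the threshold in all 100 combinations of a difference and a setting, 10 settings each.

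The labels do not say that a replicate number marks a shared batch. The correlation of same-numbered deviations was 0.03 to 0.59 (median 0.27) over 21 pairs of groups, all positive and 19 over 0.1, a hint of pairing from the data. Since not every pair was over 0.1, the fit without the block was kept. A shared replicate effect, if present, stays in the spread of that fit, and the counts above hold for it alone. Without the block, 413 of all regions were called in EM1 against Parental and 31 in EM3 against EM1. With the replicate number as a block, calls among the 297 became 28 in EM3 against EM2, 16 in EM1 against Parental and 17 in EM3 against Parental, and calls over all regions 13937 (EM2 against EM1), 161 (EM3 against EM1), 13316 (EM3 against EM2), 13107 (E against Parental), 1601 (EM1 against Parental), 10811 (EM2 against Parental) and 5482 (EM3 against Parental). DESeq2 gave 13 regions for EM1 against Parental and 14 for EM3 against Parental, and over all regions 220 for EM3 against EM1, 1197 for EM1 against Parental and 3643 for EM3 against Parental. The cause was not tested.

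Leaving out 1 library gave, among the 297 and over all regions, 8 to 33 and 3350 to 9611 calls (EM2 against EM1), 1 to 1 and 6 to 85 (EM3 against EM1), 5 to 20 and 2834 to 9349 (EM3 against EM2), 129 to 194 and 28903 to 38212 (M2 against M1), 0 to 11 and 2 to 718 (EM1 against Parental), 4 to 20 and 2173 to 7383 (EM2 against Parental), 2 to 11 and 108 to 3158 (EM3 against Parental), 231 to 277 and 20652 to 29583 (M1 against Parental), 278 to 294 and 37777 to 44963 (M2 against Parental), and 83 to 244 and 1235 to 9269 (E against Parental). Depth limits E replicate 2, with a median of 48 counts per region.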
